A study of Homo sapiens with 9 samples.

Results

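The collagen crosslinking enzymes comprised 9 genes chosen by symbol: the lysyl oxidases LOX, LOXL1, LOXL2, LOXL3 and LOXL4, the lysyl hydroxylases PLOD1, PLOD2 and PLOD3, and transglutaminase 2 (TGM2). All 9 were among the 20777 genes listed, and 8 of them were among the 13384 genes with enough reads to be tested. Their RNA was measured by RNA-seq in LX-2, a human hepatic stellate cell line that has been immortalised, in 3 groups of 3 libraries. The control group carries no treatment in its labels, the TGF-β group received TGF-β, and the TGF-β + uridine group received TGF-β and uridine; the labels place both treatments on day 1. By the study's methods, cells were exposed to 25 ng/ml TGF-β for 12 h and then given complete medium containing uridine, and these methods do not restate a uridine dose for the sequencing. Nothing in the labels says that the libraries of a group came from separate cultures, so the p-values measure the spread between these libraries, which may be technical. All groups share a single immortalised line, which stands in for stellate cells outside the liver.

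Fibrillar collagen is made stiff and insoluble by covalent bonds between its chains. Lysyl hydroxylases act inside the cell, where they add hydroxyl groups to lysines of procollagen and so set the kind of bond that can form later. Lysyl oxidases, which are secreted copper enzymes, then turn lysines and hydroxylysines of collagen and elastin into reactive aldehydes that condense into crosslinks. Transglutaminase 2 joins glutamine to lysine side chains in fibronectin, collagen and other proteins. Hepatic stellate cells are a main source of scar collagen in the fibrotic liver, and TGF-β is a well-known activator of these cells.

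Library totals ranged from 40539751 to 41467124 counts. Levels are given as CPM, the counts after scaling every library to the same effective size, with TMM scaling, which corrects for library composition and had factors from 0.820 to 1.16, and levels of different genes are compared as FPKM, which is per gene length. Genes were tested two-sided with the quasi-likelihood test of edgeR, and a change was called at a Benjamini-Hochberg adjusted p under 0.05 over all tested genes. Among stellate cell and fibroblast markers, 7 had a mean of at least 1 CPM (VIM, PDGFRB, DES, ACTA2, COL1A1, SPARC and TIMP1), COL1A2 had at most 10 reads in any library, and PDGFRA and LRAT were not analysed here. The summed level of 4 epithelial markers, nearly all of it KRT7, was 1371 to 2608 CPM in the control group, 3022 to 3158 CPM in the TGF-β group and 2052 to 2790 CPM in the TGF-β + uridine group, and its part in the results was not tested. Hepatocyte markers summed to at most 2.37 CPM and endothelial markers to at most 2.88 CPM in a library. The hepatocyte sum was nearly all HNF4A, since APOA1 and CYP3A4 had at most 10 reads in any library. ALB, APOB and TTR were not analysed here. Of 4 macrophage or leukocyte markers, 1 (CD68) averaged at least 1 CPM, ADGRE1 had at most 10 reads in any library and PTPRC was not analysed here. Their sum was nearly all CD68. It was 26.7 to 35.3 CPM in control and 36.6 to 39.1 CPM after TGF-β, without overlap. After TGF-β and uridine it was 30.0 to 40.8 CPM, and its part in the results was not tested. CD68 itself was not called with TGF-β (edgeR adjusted p = 0.486). CD14 went the other way, with 5 to 12 reads in a control library, 0 to 4 after TGF-β and 3 to 8 after TGF-β and uridine. In such bulk RNA, a change in the share of cells that express a gene and a change in RNA per cell cannot be told apart. Libraries also differed in the GC dependence of their levels. The GC slope of a library, which is the slope of its log2 CPM deviation from the mean of all libraries on the GC fraction of the genes, was 5.65, -0.73 and -4.10 in control replicates 1 to 3, 0.54, -0.32 and -0.13 in the TGF-β replicates, and -0.50, 2.28 and -2.69 in the TGF-β + uridine replicates.

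To show what the genes with the largest change and the largest spread look like at their start, the 250 bases upstream of the RefSeq start are given for LOX and PLOD2 (RefSeq, GRCh38.p14). Capitals mark matches on either strand to CAGAC (reverse GTCTG), the core bound by SMAD proteins, which carry the TGF-β signal, and to ACGTG (reverse CACGT), the core of the hypoxia response element. The LOX window lies at chr5:122078260-122078509 and the PLOD2 window at chr3:146161185-146161434, both on the minus strand. Part of the former and all of the latter lie inside the longer span that GENCODE gives to these genes.
LOX: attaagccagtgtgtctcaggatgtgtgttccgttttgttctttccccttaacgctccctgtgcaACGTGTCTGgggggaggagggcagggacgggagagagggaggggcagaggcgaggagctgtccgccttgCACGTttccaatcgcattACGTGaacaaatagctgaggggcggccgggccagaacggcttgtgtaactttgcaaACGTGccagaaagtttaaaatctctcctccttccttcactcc
PLOD2: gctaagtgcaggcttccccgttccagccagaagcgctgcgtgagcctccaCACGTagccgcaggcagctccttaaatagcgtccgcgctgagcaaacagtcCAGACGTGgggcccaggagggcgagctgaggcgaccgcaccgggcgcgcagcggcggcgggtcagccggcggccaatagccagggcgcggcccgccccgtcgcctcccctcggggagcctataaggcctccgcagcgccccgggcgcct
The LOX window held 4 matches to ACGTG, which began 185, 116, 98 and 42 bases upstream of the start, and 1 match to CAGAC that began at 181 bases and overlapped the first of them. The PLOD2 window held 2 matches to ACGTG, at 200 and 146 bases, and 1 to CAGAC at 149 bases, which overlapped the second. Of 35116 promoter windows of this length, 38.0% held CAGAC, 18.5% held ACGTG and 7.23% held both. At least 4 matches to ACGTG, a cut equal to the count in the LOX window, were held by 0.669%. LOX was shown for its large change, so this share is not a test of its window. LOX has 2 further RefSeq starts, whose windows held both cores as well. A RefSeq window was at hand for 7 of the 9 genes. Of these, LOXL1 held 1 CAGAC and no ACGTG, and LOXL3, LOXL4, PLOD1 and PLOD3 held neither core. The AP-1 letters TGANTCA (6.57% of all windows) and the TATA letters TATAAA (10.7%) were in none of the 7 genes' windows, and GGAATG (reverse CATTCC, bound by TEAD factors, 11.9%) was in 1 LOXL3 window. Such matches describe these letters only.

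At the level of RNA, PLOD1 was the most abundant of the 9 genes in every group, and LOXL4 had at most 5 reads in any library. In the control group, FPKM averaged 109 ± 18.6 for PLOD1 (SD, n = 3 here and below), 52.7 ± 1.36 for PLOD3, 40.9 ± 3.65 for LOXL2, 17.7 ± 3.28 for LOXL1, 8.24 ± 6.76 for PLOD2, 6.81 ± 0.315 for TGM2, 1.33 ± 0.474 for LOX and 0.705 ± 0.135 for LOXL3. The ranges of LOXL1 and PLOD2 overlapped, as did those of PLOD2 and TGM2, whereas the other neighbours in this order did not. In the TGF-β group, TGM2 stood above PLOD2 at 12.7 ± 0.642 against 8.80 ± 0.606 FPKM without overlap, and its range overlapped that of LOXL1 at 14.1 ± 0.715 FPKM. In the TGF-β + uridine group, TGM2 reached 14.1 ± 1.11 FPKM and stood above LOXL1 at 12.9 ± 0.50 FPKM without overlap, while LOXL1 overlapped PLOD2 at 10.6 ± 5.25 FPKM. LOX stayed seventh in each group, at 5.28 ± 0.152 FPKM after TGF-β and 4.15 ± 0.566 FPKM after TGF-β and uridine.

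Among the 8 tested genes, LOX and TGM2 rose with TGF-β and none fell. Called genes made up 3.38% of all tested genes in this comparison. The median log2 fold change of the 8 was 0.23, against -0.05 over all tested genes. The groups did not overlap for 4 of the 8 (LOX, LOXL3, PLOD1 and TGM2), against 17.7% of all tested genes. In the comparison of TGF-β + uridine with TGF-β, edgeR called 0 of the 8 (0.0448% of all tested genes), as did DESeq2 and limma. LOX alone had an unadjusted edgeR p under 0.05 (8.79% of all tested genes), and it alone had groups that did not overlap (25.6% of all tested genes). Relative to control, the TGF-β + uridine group again had LOX and TGM2 higher and none lower (5.33% of all tested genes), and LOX, PLOD1 and TGM2 did not overlap (19.7%). The comparison with uridine shares its TGF-β libraries with the first comparison, and both comparisons with control share the control libraries.

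**Figure D1:**
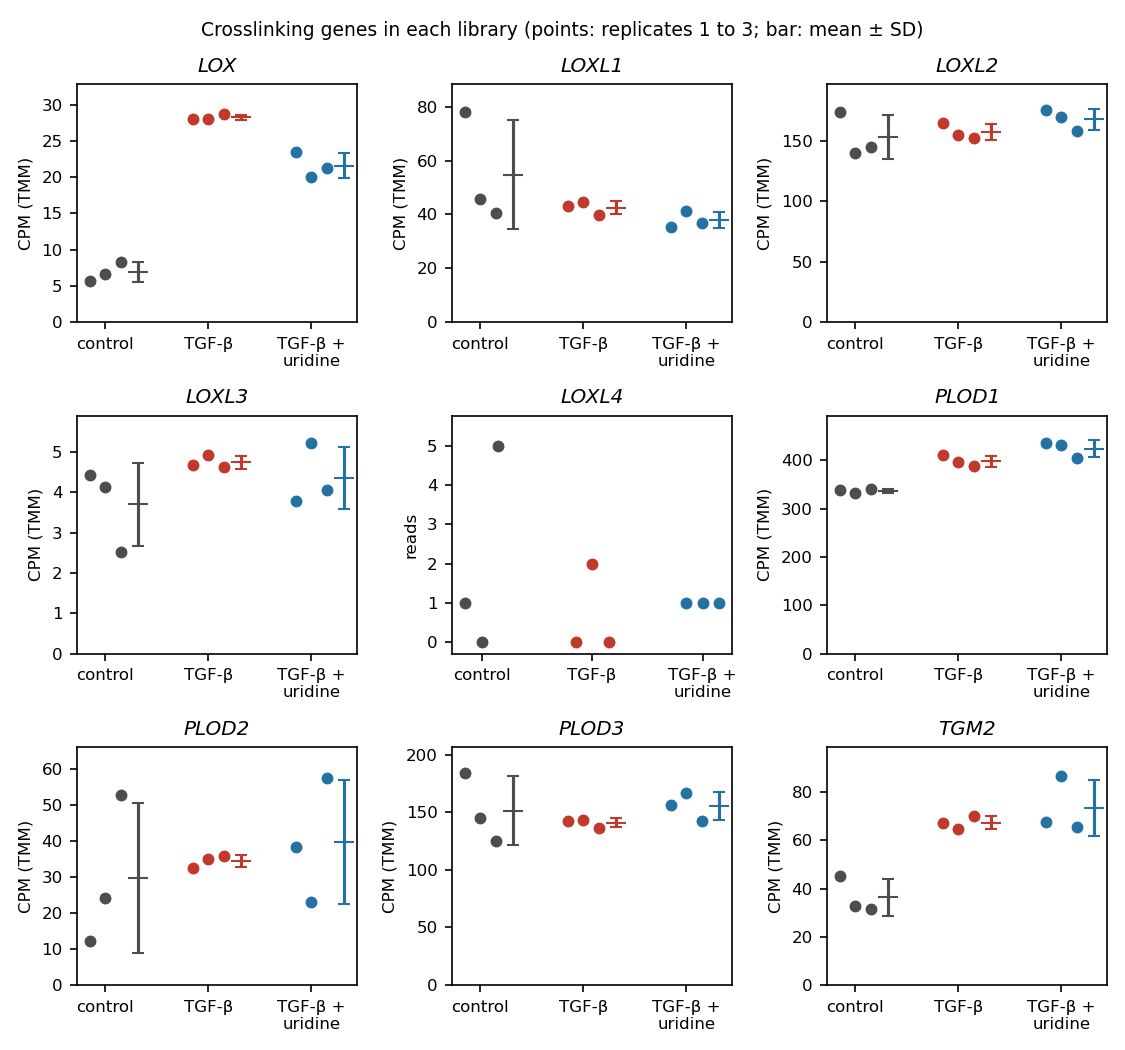
Level of each gene in the 9 libraries, in TMM-scaled CPM (reads for LOXL4) on linear axes from 0, with points for replicates 1 to 3 of each group and a bar for the mean ± SD. LOX and TGM2 lie higher in both treated groups than in every control library, and the 3 control libraries of PLOD2 spread from 12.1 to 52.7 CPM.

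LOX (ENSG00000113083) encodes the founding lysyl oxidase and spans chr5:122063195-122078360 of GRCh38, minus strand (positions of genes here and below are from GENCODE v29). It had 5.60, 6.67 and 8.31 CPM in the control libraries, 28.1, 28.1 and 28.6 CPM in the TGF-β libraries, and 23.4, 20.0 and 21.2 CPM in the TGF-β + uridine libraries. The 3 groups were fully separate, with the TGF-β group highest, the TGF-β + uridine group between and the control group lowest. These levels rest on 189 to 396 reads in a control library, 1116 to 1176 after TGF-β and 765 to 1008 after TGF-β and uridine. The TGF-β group was 4.11-fold higher than control (log2 fold change 2.04, SE 0.16, edgeR adjusted p = 0.00023), and LOX was called in all 21 alternative settings, with log2 fold changes from 1.45 to 2.20. The TGF-β + uridine group was 3.14-fold higher than control (log2 fold change 1.65, SE 0.16, edgeR adjusted p = 0.00063), again in all 21 settings.

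LOX was lower with uridine than with TGF-β alone in each library, but this difference did not pass the test over all genes. Its log2 fold change was -0.39 (SE 0.16, 95% interval -0.74 to -0.04), with edgeR's unadjusted p = 0.0338 and adjusted p = 0.511. Across the alternatives it ranged from -0.46 to -0.29, with adjusted p-values from 0.00447 to 0.992. It was called only in the 2 settings that add each library's GC slope as a covariate (edgeR adjusted p from 0.00447). Without the replicate block this covariate called 19.1% of all tested genes, 2554 in number, and with the block it called 2073 genes. SRFBP1 overlaps LOX on the opposite strand over 12376 bases and had 3 to 56 reads per library. Whether the counting used strand is not given in the sources used here, and those reads are few beside the reads of LOX in every library.

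LOXL1 (ENSG00000129038), which is known for its part in elastic fibre upkeep, spans chr15:73925989-73952137, plus strand. It had 78.1, 45.8 and 40.4 CPM in the control libraries, 43.2, 44.5 and 39.8 CPM in the TGF-β libraries and 35.4, 41.2 and 36.8 CPM in the TGF-β + uridine libraries. Control replicate 1 stood high, and the groups overlapped in each comparison on the CPM scale. In FPKM, the control libraries ranged from 15.7 to 21.5, the TGF-β libraries from 13.5 to 14.9 and the TGF-β + uridine libraries from 12.4 to 13.4, with no overlap. The log2 fold change was -0.36 with TGF-β (95% interval -0.87 to 0.14) and -0.53 for TGF-β + uridine against control (SE 0.22, unadjusted p = 0.0403, edgeR adjusted p = 0.252). Without control replicate 1 these values were -0.025 and -0.21. The latter comparison was called in 4 of the 21 alternatives, with adjusted p-values from 0.00174 to 0.522. LOXL1-AS1, on the opposite strand over 2260 bases of LOXL1, had 187 to 273 reads per library, against 1523 to 2635 on LOXL1.

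LOXL2 (ENSG00000134013), an oxidase that also crosslinks collagen IV of basement membranes, spans chr8:23297189-23425328, minus strand. Its libraries had 174, 141 and 145 CPM in the control group, 165, 155 and 152 CPM after TGF-β, and 176, 170 and 159 CPM after TGF-β and uridine. All groups overlapped. The log2 fold changes were 0.04 with TGF-β (95% interval -0.20 to 0.28), 0.09 for uridine (95% interval -0.14 to 0.33) and 0.13 for both against control (95% interval -0.11 to 0.37). These intervals leave out a change of the size seen in LOX with TGF-β. ENTPD4 overlaps LOXL2 on the same strand over 39546 bases and had 357 to 714 reads per library.

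LOXL3 (ENSG00000115318), a lysyl oxidase at chr2:74532414-74555690, minus strand, was low, with 4.44, 4.14 and 2.52 CPM in the control group, 4.68, 4.94 and 4.63 CPM after TGF-β and 3.79, 5.23 and 4.07 CPM after TGF-β and uridine. Its TGF-β libraries all lay above its control libraries, but the log2 fold change of 0.36 (SE 0.25) had an edgeR adjusted p of 0.761. DOK1 overlaps LOXL3 on the opposite strand over 6665 bases with 171 to 220 reads per library, which is as many as the 120 to 204 reads of LOXL3, and HTRA2 overlaps it on the opposite strand over 935 bases with 1882 to 2532 reads. The source of some LOXL3 reads therefore cannot be told apart. LOXL4 (ENSG00000138131), at chr10:98247690-98268250, minus strand, had 1, 0 and 5 reads in the control libraries, 0, 2 and 0 after TGF-β, and 1 in each TGF-β + uridine library. It was not tested. A count of 0 allows up to 3 reads, which is 0.0714 CPM in control replicate 2, 0.0755 CPM in TGF-β replicate 1 and 0.0731 CPM in TGF-β replicate 3, for counting error only.

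Within the lysyl oxidases, the share of LOX in the summed FPKM of the 5 genes was 1.41, 2.28 and 2.87% in the control libraries, 8.15, 8.41 and 8.92% in the TGF-β libraries, and 6.88, 5.86 and 6.70% in the TGF-β + uridine libraries. LOXL2 made up most of the sum in every library, with 67.4 ± 4.52% in the control group, 67.3 ± 0.909% in the TGF-β group and 71.9 ± 1.34% in the TGF-β + uridine group. The summed FPKM itself was 60.6 ± 3.07, 62.3 ± 1.13 and 63.8 ± 3.57 in the same order and overlapped between groups. LOX thus remained a minor part of lysyl oxidase RNA after TGF-β.

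**Figure D2:**
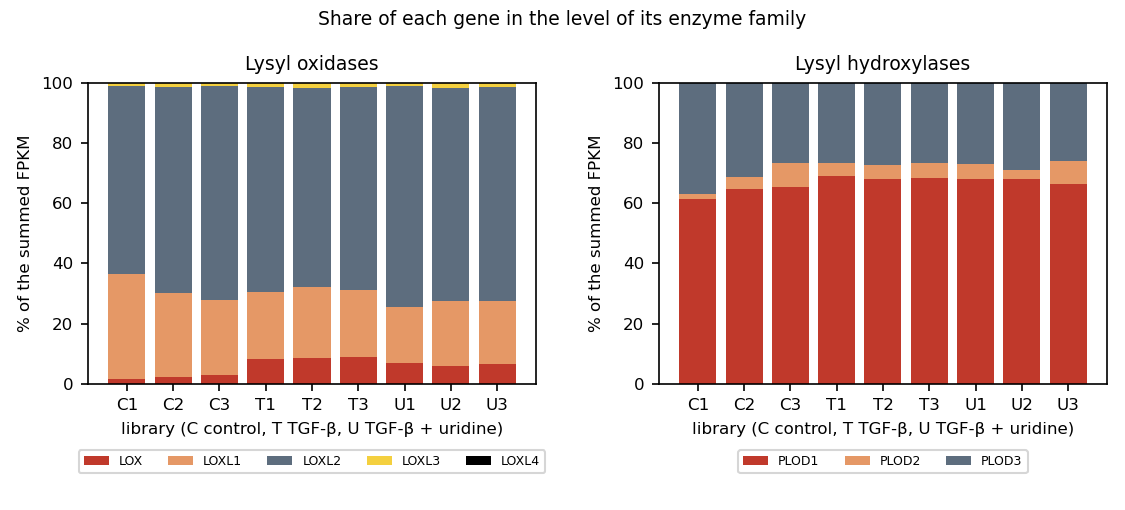
Share of each gene in the summed FPKM of its enzyme family, in percent, for each of the 9 libraries (C control, T TGF-β, U TGF-β + uridine, numbers for replicates). The LOX share is 1.41 to 2.87% in the control libraries and 8.15 to 8.92% in the TGF-β libraries, and LOXL2 and PLOD1 hold the greater part of their families in each library.

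PLOD1 (ENSG00000083444), the hydroxylase of lysines in the triple helix of collagen, spans chr1:11934205-11975538, plus strand. It had 338, 333 and 340 CPM in the control libraries, 410, 395 and 388 CPM in the TGF-β libraries and 436, 432 and 404 CPM in the TGF-β + uridine libraries. Both treated groups lay above control without overlap, and they overlapped each other. With TGF-β the log2 fold change was 0.24 (SE 0.08, unadjusted p = 0.0175, edgeR adjusted p = 0.217), and for TGF-β + uridine against control it was 0.33 (SE 0.08, unadjusted p = 0.00301, edgeR adjusted p = 0.0539). The latter value lay just outside the threshold and passed it in 6 of 21 alternatives, with adjusted p-values from 3.4e-05 to 0.261. The separation from control after TGF-β was not seen in FPKM. On that scale, which divides by the library total, the control libraries ranged from 89.0 to 126 the TGF-β libraries from 125 to 127 and the TGF-β + uridine libraries from 129 to 145, so that the treated groups, which overlapped in CPM, did not overlap each other. The log2 fold change of uridine was 0.09 (95% interval -0.09 to 0.28).

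PLOD2 (ENSG00000152952) encodes the hydroxylase of telopeptide lysines, whose product gives the crosslinks typical of fibrotic collagen. It spans chr3:146069440-146163653, minus strand. Its levels were 12.1, 24.1 and 52.7 CPM in the control libraries, 32.5, 34.9 and 35.9 CPM in the TGF-β libraries and 38.1, 23.1 and 57.4 CPM in the TGF-β + uridine libraries. The TGF-β libraries lay together inside the range of the control libraries. The coefficient of variation of PLOD2 was 70.3% in the control group, 5.02% in the TGF-β group and 43.5% in the TGF-β + uridine group, where the medians over all tested genes were 29.7%, 8.07% and 14.0%. The log2 fold changes were 0.21 with TGF-β (95% interval -0.88 to 1.31), 0.20 for uridine (95% interval -0.89 to 1.29) and 0.41 for both against control (95% interval -0.68 to 1.51). These intervals were the widest of the 8 genes. Leaving out control replicate 1 turned the TGF-β value to -0.17, and leaving out TGF-β + uridine replicate 3 turned the uridine value to -0.17. With 1 library left out, the value for both against control ranged from 0.017 to 1.12.

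Within the control group and within the TGF-β + uridine group, PLOD2 was higher the lower the GC slope of the library. PLOD2 transcripts have 34.4% GC, the lowest of the 9 genes. Control replicate 1, with the highest slope (5.65), had the lowest PLOD2 level, and control replicate 3, with the lowest slope (-4.10), had the highest among the controls. In the TGF-β + uridine group the highest slope was 2.28 in replicate 2, which had 23.1 CPM, and the lowest was -2.69 in replicate 3, which had 57.4 CPM. For PLOD3 (61.7% GC) and LOXL1 (67.6% GC), control replicate 1 was the highest library. PLOD1 (58.6% GC) showed no such order, with 338, 333 and 340 CPM in control replicates 1 to 3. LOXL2 (58.2% GC) was highest in TGF-β + uridine replicate 1, at 176 CPM against 174 CPM in control replicate 1. LOX (39.6% GC) had the same order as PLOD2 in the control group, from 5.60 CPM at the highest slope to 8.31 CPM at the lowest. It did not have this order in the TGF-β + uridine group. The TGF-β libraries spanned slopes of only -0.32 to 0.54. Nearest to this span in the other groups were control replicate 2 at -0.73 and TGF-β + uridine replicate 1 at -0.50. Levels at matched slopes were not compared. ACSL4, a gene for a fatty acid-activating enzyme, was the gene whose log2 CPM lay closest to that of PLOD2 over the 9 libraries (Pearson's r = 0.997, 9833 genes compared, each averaging a log2 CPM of 1 or more), with 2.34, 5.98 and 14.7 CPM in the control libraries.

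**Figure D3:**
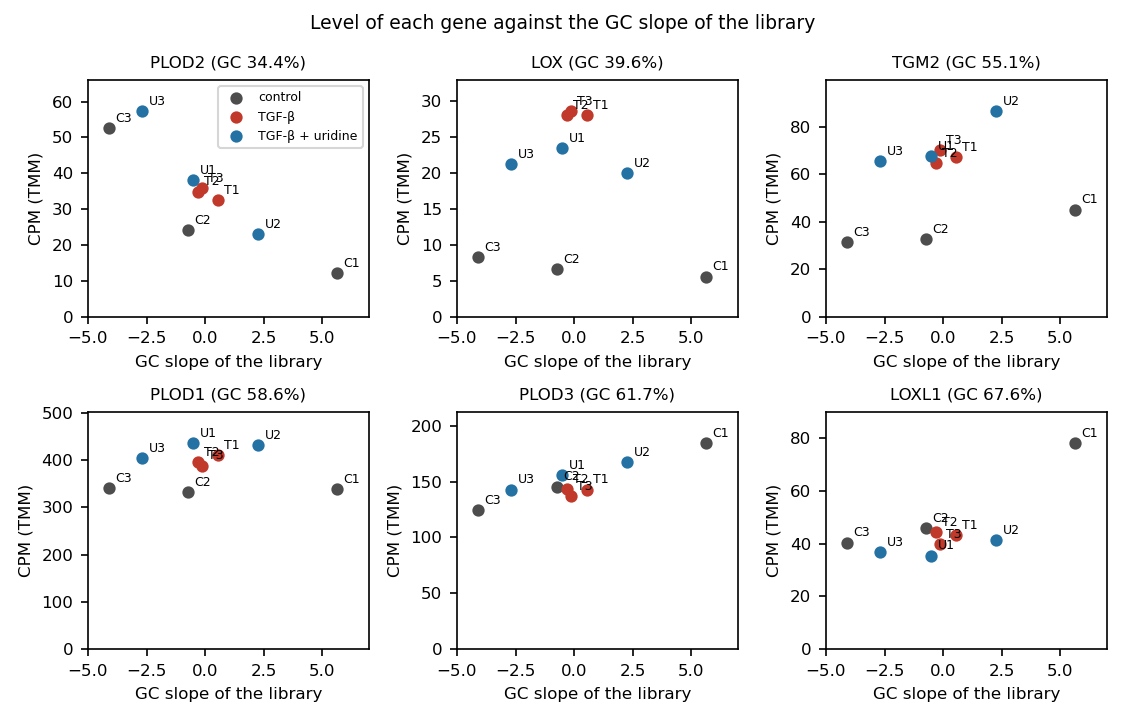
Level of 6 genes in TMM-scaled CPM (vertical, linear from 0) against the GC slope of each library (horizontal, change of log2 CPM per unit of GC fraction), with 1 point per library and colours for the groups. PLOD2 falls from 52.7 to 12.1 CPM across the control libraries as the slope goes from -4.10 to 5.65, and LOX falls from 8.31 to 5.60 CPM across the same libraries.

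A covariate for the GC slope, which was chosen with earlier results of these data known, raised the number of calls over all genes. It called 20.3% of all tested genes for TGF-β, and among the crosslinking genes LOX, TGM2, PLOD1 and PLOD2 as higher and LOXL1 as lower. For uridine it called 19.1% of all tested genes, with PLOD3 as higher and LOX as lower. For TGF-β + uridine against control it called 31.1% of all tested genes, with LOX, TGM2, PLOD1, PLOD2 and LOXL2 as higher and LOXL1 as lower. The slopes were computed from the same counts that were tested.

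PLOD3 (ENSG00000106397), which both hydroxylates collagen lysines and adds sugars to them, spans chr7:101205977-101218420, minus strand. It had 184, 145 and 125 CPM in the control libraries, 143, 143 and 137 CPM in the TGF-β libraries and 156, 167 and 143 CPM in the TGF-β + uridine libraries. All groups overlapped on this scale. Its log2 fold changes were -0.10 with TGF-β (95% interval -0.42 to 0.22), 0.14 for uridine (95% interval -0.18 to 0.46) and 0.04 for both against control (95% interval -0.28 to 0.36). In FPKM the TGF-β libraries ranged from 48.8 to 50.6, the control libraries from 51.1 to 53.6 and the TGF-β + uridine libraries from 54.7 to 57.4, with no overlap between any of the groups. ZNHIT1 overlaps PLOD3 on the opposite strand over 753 bases and had 4945 to 6971 reads per library, about as many as PLOD3.

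TGM2 (ENSG00000198959) encodes transglutaminase 2 and spans chr20:38127387-38166578, minus strand. It had 45.1, 32.7 and 31.4 CPM in the control libraries, 67.3, 64.7 and 70.2 CPM in the TGF-β libraries and 67.6, 86.7 and 65.7 CPM in the TGF-β + uridine libraries. Every treated library lay above every control library, and the 2 treated groups overlapped. TGM2 was 1.85-fold higher with TGF-β (log2 fold change 0.89, SE 0.16, edgeR adjusted p = 0.0192) and 2.02-fold higher with TGF-β + uridine than in control (log2 fold change 1.01, SE 0.17, edgeR adjusted p = 0.00885). For uridine the log2 fold change was 0.12 (95% interval -0.25 to 0.49). The size of the TGF-β effect stayed between 0.79 and 1.07 over the 21 alternatives, but the call was made in 15 of them. Leaving out control replicate 2 gave an edgeR adjusted p of 0.110. Leaving out replicate 1, 2 or 3 of the TGF-β group gave 0.0878, 0.0786 and 0.0960. For TGF-β + uridine against control the call was made in 19 of 21, and the adjusted p was 0.0553 without control replicate 2. RPRD1B overlaps TGM2 on the opposite strand over 394 bases and had 699 to 1823 reads per library, against 1373 to 3319 on TGM2. It had more reads than TGM2 in control replicates 2 and 3, and its own log2 fold change with TGF-β was 0.08 (edgeR adjusted p = 0.996). ACOX3, a peroxisomal oxidase gene, was closest to TGM2 (Pearson's r = 0.993), with 5.43 to 8.62 CPM in control and 12.8 to 18.5 CPM in the treated libraries.

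**Figure D4:**
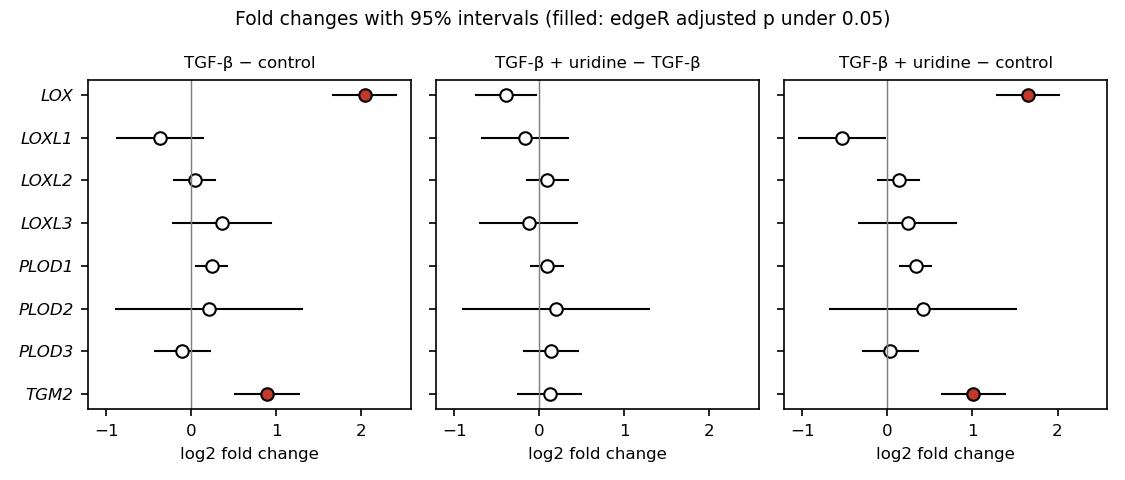
Log2 fold changes of the 8 tested genes in the 3 comparisons (horizontal), with 95% intervals from edgeR as lines and filled points for an adjusted p under 0.05. LOX (2.04 and 1.65) and TGM2 (0.89 and 1.01) are filled in both comparisons with control, and no point is filled for uridine.

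The other genes of collagen assembly were read from lists grouped by role. Of 15 genes for hydroxylation and folding of collagen, 13 were tested, and 2 were called as higher with TGF-β (3.38% of all tested genes): P4HA2 (log2 fold change 0.76, SE 0.15, edgeR adjusted p = 0.0278) and P4HA3 (2.42, SE 0.39, edgeR adjusted p = 0.00988), which encode catalytic subunits of prolyl 4-hydroxylase. P4HA3 was low, with 7 to 14 reads in a control library and 42 to 72 after TGF-β, and it was not tested where at least 10 reads were required in every library. P4HA2 was not called with only the 2 groups compared or without TGF-β replicate 1, 2 or 3, TGF-β + uridine replicate 1 or control replicate 2, and without TGF-β replicate 3 neither gene was called. P4HA1, the remaining catalytic subunit, was at -0.14 on the log2 scale (edgeR adjusted p = 0.998). Its control libraries, at 3.11, 12.1 and 18.2 CPM, were ordered as those of PLOD2 were. The collagen chaperone gene SERPINH1 was not called. CRTAP, another gene of this list, was not called in the main fit (log2 fold change -0.29, edgeR adjusted p = 0.303). Limma called CRTAP for TGF-β in each of its settings, as did both fits with the GC slope. The fits with the GC slope also called P3H1. Of the 8 genes for procollagen trimming, 4 were tested and 1 rose, BMP1 (log2 fold change 0.55, SE 0.10, edgeR adjusted p = 0.0218). BMP1 is a procollagen C-proteinase that also cleaves the LOX proenzyme. It was not called in the same 6 settings in which P4HA2 was not.

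Of 9 genes for substrates that these enzymes crosslink, 5 were tested and 2 rose with TGF-β (3.38% of all tested genes). COL5A1, which encodes a collagen V chain, went from 268 ± 25.1 to 804 ± 3.37 CPM (edgeR adjusted p = 7.4e-05), a log2 fold change of 1.58 (SE 0.10). FN1, which encodes fibronectin, a substrate of TGM2, went from 51.7 to 76.5 CPM in the control libraries to 188 to 209 CPM in the TGF-β libraries (log2 fold change 1.56, SE 0.15, edgeR adjusted p = 0.00061). COL1A1 had 46.1 CPM in control and 63.4 CPM after TGF-β (log2 fold change 0.46, edgeR adjusted p = 0.0822), and COL3A1, at 17 to 31 reads in a control library, stood 1.44 higher on the log2 scale (edgeR adjusted p = 0.0647). COL5A2, which encodes another collagen V chain, stood at 0.11 on the log2 scale, its groups overlapped and its edgeR adjusted p was 0.996. The median of the 5 was 1.44. FBLN5, an elastic fibre protein, was the 1 called of 3 tested matrix partners of lysyl oxidases (log2 fold change 0.93, SE 0.17, edgeR adjusted p = 0.0171), with 6 listed. It was not called in those 6 settings, without a low-count filter or with the replicate block.

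None of the 4 copper supply genes, which load the metal that lysyl oxidases need, was called in any comparison by edgeR or DESeq2, and 0 had an unadjusted edgeR p under 0.05. Over all tested genes, edgeR called 3.38% for TGF-β, 0.0448% for uridine and 5.33% for both against control, and 1623, 1177 and 2360 of the 13384 genes had an unadjusted p under 0.05, so that 0 of 4 lies near the share of all genes. ATP7A, the copper pump that feeds secreted enzymes, had a wide interval. Of 9 other transglutaminase genes, 2 were tested and neither was called with TGF-β by edgeR or DESeq2 (0 at an unadjusted edgeR p under 0.05), which also lies near the share of all genes. TGM1, the keratinocyte transglutaminase, fell in TGF-β + uridine against control, opposite in sign to TGM2 (log2 fold change -1.14, SE 0.25, edgeR adjusted p = 0.0329), with 587 to 810 reads in a control library, 477 to 586 after TGF-β and 305 to 350 after TGF-β and uridine. In that comparison COL1A1, COL3A1, COL5A1 and FN1 (4 of 5), P4HA3 and P3H1 (2 of 13), BMP1 (1 of 4) and FBLN5 (1 of 3) were higher, where called genes made up 5.33% of all tested genes. COL5A1 and FN1 were called in that comparison in each edgeR setting, but several of the other calls were lost when 1 library was left out. Of the 13 hydroxylation and folding genes, 0 were called with only the 2 groups compared or without TGF-β replicate 2 or 3, control replicate 2, or any 1 of the TGF-β + uridine libraries. P3H1 alone was called with RLE scaling, with no low-count filter, with the replicate block, and without TGF-β replicate 1 or control replicate 3, while 4 were called without control replicate 1. DESeq2 and upper-quartile scaling each called 4 (P3H1, P4HA2, P4HA3 and P4HB). Limma called 4 in each of its settings, among them CRTAP and SERPINH1. The GC slope covariate called 7, where it called 31.1% of all tested genes. Leaving out any 1 treated library or control replicate 2 also removed the calls of BMP1 and TGM1. COL1A1 was called in that comparison without control replicate 1 but not without any other 1 library, and COL3A1 was called without control replicate 1 or TGF-β + uridine replicate 2 only.

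With uridine relative to TGF-β, edgeR and DESeq2 called 0 genes in each of these lists. P3H1, a prolyl 3-hydroxylase, and TGM1 had unadjusted p-values under 0.05 (8.79% of all tested genes), with log2 fold changes of 0.32 (edgeR adjusted p = 0.370) and -0.69 (edgeR adjusted p = 0.447), and limma on log2(FPKM + 1) called P3H1. Among genes chosen to check the response to TGF-β, TGFBI rose with TGF-β by a log2 fold change of 2.84, PMEPA1 by 2.59 and LTBP2 by 1.84 (edgeR adjusted p from 3.5e-06 to 0.00154). LOX, at 2.04, lay within this range and TGM2 below it.

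**Figure D5:**
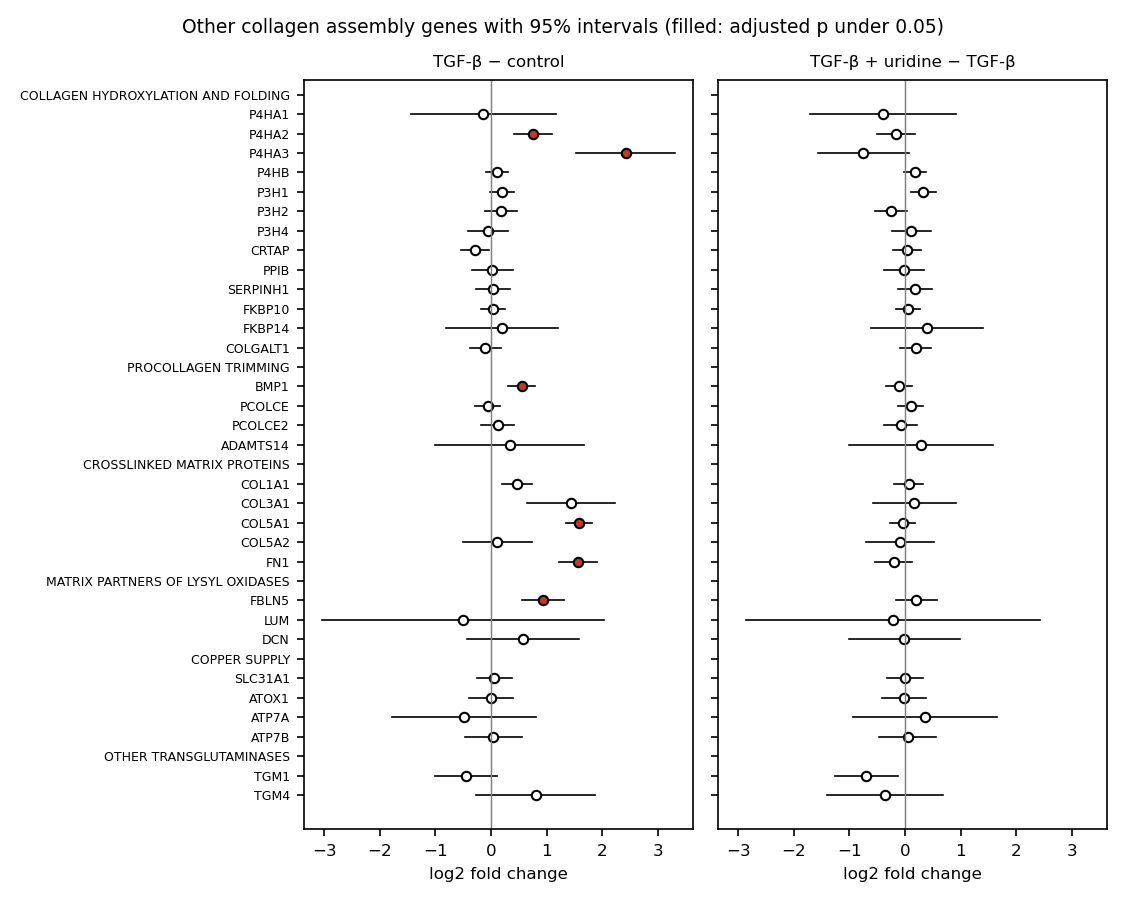
Log2 fold changes (horizontal) of the tested genes of 6 collagen assembly lists for TGF-β against control and for TGF-β + uridine against TGF-β, with 95% intervals from edgeR and filled points for an adjusted p under 0.05. P4HA2, P4HA3, BMP1, COL5A1, FN1 and FBLN5 are filled for TGF-β, and none is filled for uridine.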

How the data were processed

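The authors deposited raw read counts per gene symbol and, in a second table, FPKM, both for 20777 genes in 9 sample columns, which were matched to the labels by title. Per the labels and the submitters' processing notes, reads were processed with fastp, HISAT2 and HTSeq against GRCh38.p13, with R 3.2.0; whether counting used strand is not given in the sources used here. Dividing the deposited counts by their FPKM gave the same length for a gene in each library, so FPKM are scaled to library totals.

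The main test was glmQLFTest of edgeR 4.0.16 (R 4.3.3) after filterByExpr, TMM scaling and glmQLFit, in 1 model of 3 groups over all 9 libraries, with Benjamini-Hochberg adjustment over 13384 genes and a threshold of 0.05. The SE is the log2 fold change divided by the root of its F statistic. Library totals differed little (40539751 to 41467124 counts), and genes of few reads, such as LOXL4, have no usable estimate at this depth. The exact permutation test of 3 libraries against 3 cannot give a p below 0.1 and was used only to see overlap.

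GC content and positions come from GENCODE v29 (GRCh38), with GC from the longest transcript, and promoter windows come from RefSeq (GRCh38.p14). The GC slope used 12319 tested genes. The text names all 9 crosslinking genes, the called members of each list and up to 4 others per list; some results within this rule are not reported here. The closest gene, where given, is the one with the highest Pearson's r of log2 CPM (prior count 2). The members and lists were chosen with earlier results of these data known. Alternatives were DESeq2 1.42.0, limma 3.58.1 on log2(FPKM + 1) and log2(FPKM + 0.1) with a mean FPKM of at least 0.5 or no filter, upper-quartile and RLE scaling, no filter or at least 10 counts in every library, only the 2 groups compared, the replicate number as a block, each library left out, and 2 fits with the GC slope. The code was tested on simulated data.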

Additional observations from a re-analysis of the deposited data

How the results depend on the processing

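LOX was called against control in every one of the 21 alternatives, in both comparisons. Of the 2 crosslinking genes called for TGF-β, 1 remained with only the 2 groups compared, with the replicate block or with a log2 fold change of at least 1, and the number with 1 library left out was 1 to 2. Against control, TGF-β + uridine kept 1 of 2 with only the 2 groups compared and had 1 to 3 with 1 library left out. The GC slope covariate, added after earlier results of these data were known, gave 5 calls for TGF-β, 2 for uridine and 6 for both against control; together with the replicate block it gave 4, 2 and 6. The replicate block gave 1, 0 and 2 calls, and the TGM2 adjusted p for TGF-β was then 0.0509. Deviations from the group means correlated between -0.21 and 0.56 for same-numbered libraries and between -0.66 and 0.63 for differently numbered ones. These ranges overlap, so they do not show whether replicate numbers pair the libraries.

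Differences reversed in sign only for uncalled genes with 1 library left out. For TGF-β, PLOD2 ranged from -0.17 to 0.92, PLOD3 from -0.23 to 0.058 and LOXL2 from -0.019 to 0.14. For uridine, TGM2 ranged from -0.018 to 0.19 and PLOD2 from -0.17 to 0.47, and for both against control PLOD3 ranged from -0.087 to 0.18. Over all genes, 453, 6 and 714 calls for TGF-β, uridine and both became 861, 238 and 1293 with DESeq2, 803, 385 and 1421 with limma on log2(FPKM + 1), 229, 317 and 222 with only the 2 groups, 314, 0 and 437 with the replicate block, and 2715, 2554 and 4162 with the GC covariate. Without 1 library they ranged from 218 to 1085, from 0 to 271 and from 304 to 2413. The cause was not tested.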
